A study of Mus musculus with 4 samples.

Results

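Cohesin is a ring that holds sister chromatids together and shapes chromosomes into loops. Its core has a pair of SMC proteins, a kleisin that closes the ring, and a STAG protein bound to the kleisin, and it is loaded onto chromatin by NIPBL with its partner MAU2. Germ cells entering meiosis add paralogs of their own to this set, so that SMC1B stands beside SMC1A, RAD21L and REC8 beside RAD21, and STAG3 beside STAG1 and STAG2, while SMC3 is common to the mitotic and meiotic rings. In spermatocytes the meiotic forms build the chromosome axis on which the synaptonemal complex is assembled.

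The genes described here were these 10 cohesin genes, taken by gene symbol from the 11598 genes of the table. They were the meiotic subunits *Smc1b*, *Rad21l*, *Rec8* and *Stag3* (4 genes), their mitotic paralogs *Smc1a*, *Rad21*, *Stag1* and *Stag2* (4 genes), the common subunit *Smc3*, and *Nipbl*. The table gave ribosome-protected fragments (RPFs), the pieces of mRNA that a translating ribosome shields from nuclease, in leptotene/zygotene spermatocytes profiled by Ribo-seq. The cells were sorted by FACS from 12 dpp testes of mice, with 2 control libraries and 2 *Eef1g*-cKO libraries. *Eef1g* encodes a subunit of the elongation factor eEF1 complex, and in *Eef1g*-cKO mice several of its exons are removed in male germ cells by a Cre recombinase under *Stra8* (*Stra8*-GFPCre), which acts from spermatogonia onward; the floxed line was made on C57BL/6J. The sample labels call the control wild type and the study calls it littermate control, and neither says whether a library pools animals or whether the controls carry the Cre or floxed alleles. The comparison asked how ribosome occupancy of the cohesin genes differs between the genotypes when *Eef1g* is lost in early meiotic prophase. RPFs were measured without a matched mRNA value in this table, so an RPF difference here is not separated into mRNA level and ribosomes per mRNA.

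The values are FPKM, reads per 1000 bases of gene length and per 1000000 reads on all genes. Those totals were 2479504 and 1384282 reads for control replicates 1 and 2, against 223906 and 407979 for *Eef1g*-cKO replicates 1 and 2, so control was on average 6.11 times deeper. The 10 genes together had 8796 and 4688 reads in control against 1140 and 2262 in *Eef1g*-cKO, that is 3547 and 3387 against 5091 and 5544 reads per 1000000. Depth differed between the genotypes in the same direction in both replicates, and its part in the differences below was tested only by thinning the libraries to equal reads, for which the values are given in the closing section.

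*Eef1g* itself had 27.6 and 26.8 FPKM in control and 0 and 6.26 FPKM in *Eef1g*-cKO. Both *Eef1g*-cKO libraries lay below both control libraries, in the direction of the labels. The 0 reads of *Eef1g*-cKO replicate 1 allow up to 8.56 FPKM (3 reads, a one-sided 95% limit), and the 4 reads of replicate 2 have an exact two-sided Poisson 95% interval of 1.71 to 16.0 FPKM. The log2 fold change of FPKM + 1, which for so few reads depends on the added 1, was -3.39 (95% interval -5.63 to -1.14) and missed the adjusted threshold in limma (adjusted p = 0.0731), while edgeR's quasi-likelihood test on the reads gave an adjusted p of 0.00780. DESeq2 on the reads did not pass (adjusted p = 0.050029). Limma passed with the replicate number as a block (adjusted p = 0.0223) and with 5 added in place of 1 (adjusted p = 0.0311). The adjusted p ran from 4.02e-05 to 0.448 over 18 alternatives, and it passed when *Eef1g*-cKO replicate 1 was left out (limma adjusted p = 0.00883, log2 fold change -1.96) and when replicate 2 was (4.02e-05 and -4.82). With a control library left out it did not pass (limma adjusted p = 0.397 without control replicate 1 and 0.448 without control replicate 2).

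The sorted population was checked against its marker genes. All 11 leptotene/zygotene markers were in the table with reads in every library, and *Sycp3*, a synaptonemal complex component and the most abundant of them, had 811 and 716 FPKM in control and 2217 and 1778 FPKM in *Eef1g*-cKO. Their summed level was 1736 and 1393 FPKM in control and 3832 and 3369 FPKM in *Eef1g*-cKO, much of it from *Sycp3*. The list did not move as 1: of the 11 markers, 7 separated the genotypes upward in *Eef1g*-cKO and 2 downward. The downward pair was *Rec114*, which went from 81.3 and 115 FPKM to 45.5 and 41.6 FPKM, and *Mei4*. For *Spo11* and *Tex15* the genotypes overlapped. The summed level of the spermatogonial markers, 12 of 12 in the table, was lower in *Eef1g*-cKO, with 1755 and 2016 FPKM in control and 374 and 326 FPKM in *Eef1g*-cKO. Their most abundant gene, *Uchl1*, made up much of this sum, with 1011 and 1138 FPKM in control against 140 and 120 FPKM in *Eef1g*-cKO. Limma called 7 of the 12 decreased by adjusted p, beside 4.97% of all genes, and *Gfra1* and *Nanos3* overlapped between the genotypes. Of the spermatogonial markers, 4 (*Gfra1*, *Id4*, *Nanos3* and *Lin28a*) had 0 reads in *Eef1g*-cKO replicate 1 and 1 (*Etv5*) had 0 in replicate 2, whereas the control libraries had reads on each. Of all genes of the table, 2086 and 1452 had 0 reads in the *Eef1g*-cKO libraries and 22 and 219 in the deeper control libraries. The control reads of these markers ran from 5 to 165, the most on *Lin28a* (165 and 95). The control libraries thus carried more spermatogonial RPFs than the *Eef1g*-cKO libraries, and in sorted cells measured in bulk, fewer cells of a type and fewer RPFs per cell cannot be told apart. These marker levels move with the genotype alongside the cohesin genes below, and their part in those differences was not tested.

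RPFs of 26 to 34 nucleotides (nt) can be assigned to a paralog only where its coding sequence differs from the other. No stretch of 26 nt was shared between the coding sequences of any meiotic and mitotic pair. Between *Smc1b* and *Smc1a* the longest identical run was 23 nt, at positions 874 to 896 of both coding sequences. This run is shown because it is the place where these paralogs come closest. Capitals mark the identical run and lower case the 9 bases on each side, read from GENCODE transcripts of GRCm38.

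Smc1b: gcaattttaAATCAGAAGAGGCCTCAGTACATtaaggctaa
Smc1a: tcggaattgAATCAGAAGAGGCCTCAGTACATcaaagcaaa

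A footprint of the shortest length selected was therefore longer than the closest match of the SMC1 pair. For *Rec8* and *Rad21* the longest run was 12 nt, and for *Stag3* it was 14 nt with *Stag1* and 14 nt with *Stag2*. The longest run of *Rad21l* and *Rad21*, which shared no stretch of 26 nt, is not reported here. Against the transcripts of all other genes, 8 of the 10 coding sequences shared no stretch of 26 nt, *Rad21* shared 33 of 1880 (1.76%) and *Smc3* shared 179 of 3626 (4.94%), so the values of *Rad21* and *Smc3* could take in or lose a small part of their reads, depending on how reads with several matches were counted, which is not given in the sources used here.

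In control, *Smc1b* had the highest level of the 10 genes at 215 ± 19.4 FPKM (mean ± SD, n = 2), followed by *Stag3* at 178 ± 5.26, *Rad21* at 127 ± 5.63 and *Smc3* at 110 ± 15.7 FPKM. *Rad21l* followed at 61.2 ± 7.69, *Stag1* at 45.3 ± 7.50, *Smc1a* at 39.2 ± 0.681, *Rec8* at 35.3 ± 18.6, *Nipbl* at 16.3 ± 1.85 and *Stag2* at 12.3 ± 0.831 FPKM. Neighbours in this order differed by more than the larger of their SDs except *Stag1* and *Smc1a*, and *Smc1a* and *Rec8*. In *Eef1g*-cKO the order was *Smc1b* at 588 ± 33.0, *Stag3* at 252 ± 34.5, *Rad21l* at 160 ± 6.42, *Smc3* at 99.3 ± 1.08, *Smc1a* at 81.1 ± 4.92, *Stag1* at 37.7 ± 0.835, *Rad21* at 32.6 ± 2.89, *Nipbl* at 30.4 ± 1.84, *Rec8* at 22.6 ± 4.95 and *Stag2* at 14.8 ± 3.63 FPKM. Only *Rad21* and *Nipbl* lay within the larger SD of each other there. *Rad21* went from place 3 to place 7 of this order, and *Rad21l* from place 5 to place 3.

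**Figure D1:**
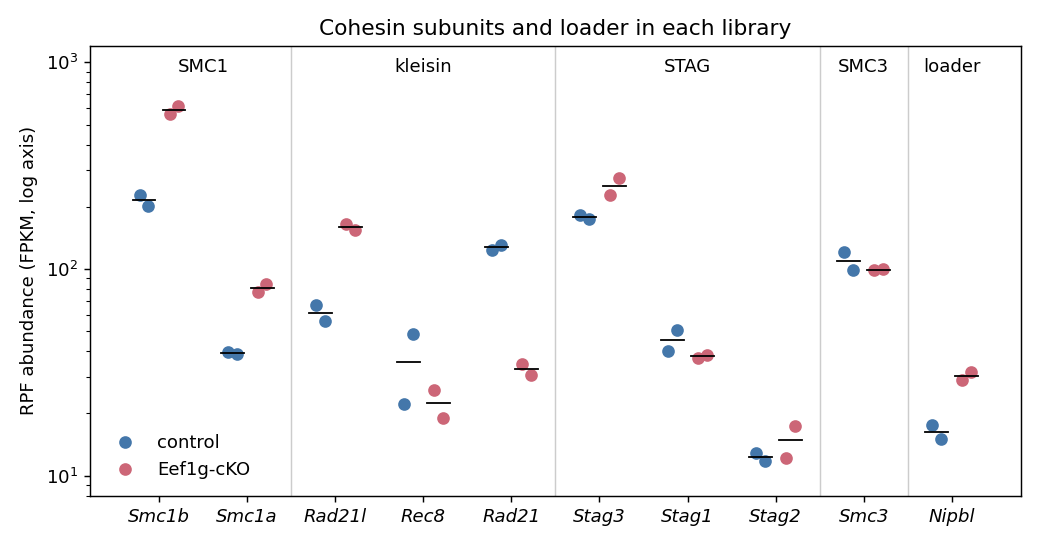
RPF abundance of the 10 cohesin genes in each library, in FPKM on a log axis. Points are single libraries (control in blue, *Eef1g*-cKO in red), black lines are the means of 2 libraries, and genes are grouped by role; *Rad21* drops from 127 to 32.6 FPKM while *Rad21l* climbs from 61.2 to 160 FPKM.

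The gene length behind FPKM takes in untranslated sequence, which carries few RPFs, and its share differs between the genes: the table's length was 3605 bases for *Rad21* against a coding sequence of 1905, and 1659 bases for *Rad21l* against 1656. Counted per kilobase of coding sequence per 1000000 reads, a scale chosen after seeing the data, *Rad21* was the highest in control at 241 ± 10.7, level within the SD with *Smc1b* at 232 ± 20.9. On that scale *Rad21* was still at place 6 in *Eef1g*-cKO, at 61.8 ± 5.48. The order of levels between genes therefore depended on the length used, and differences between genotypes for 1 gene did not.

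Of the 10 cohesin genes, all had a mean of 1 FPKM or more and were tested, and limma called 3 increased (*Smc1b*, *Rad21l* and *Smc1a*) and 1 decreased (*Rad21*) in *Eef1g*-cKO, with thresholds of 0.05 on the adjusted p and 1 on the size of the log2 fold change. Of all 10475 genes tested, 2.87% (301) were called increased and 4.97% (521) decreased by the same rule. By unadjusted p the member counts were 3 and 1, beside 7.32% and 16.3% of all genes, and edgeR's quasi-likelihood test on the reads gave 3 and 1, beside 8.75% and 11.2% of 8056 genes. DESeq2 on the reads gave 3 and 1, beside 5.94% and 5.34% of the 8450 genes with an adjusted p. In 5 members both *Eef1g*-cKO libraries had higher values than both control libraries, and in 2 they had lower ones, beside 24.6% and 37.7% of all genes. The median log2 fold change was 0.36 over the 10 members, 0.93 over the 4 meiotic subunits and -0.01 over the 4 mitotic paralogs, beside -0.23 over all genes. Centring the libraries on their medians moved the median of all genes to -0.02 and gave 521 genes increased and 383 decreased. The study itself singled out *Smc1b*, *Rad21l* and *Smc1a* on these libraries, so their direction is not independent evidence. With either control library left out, limma called 0 genes of the whole table by adjusted p (585 increased and 941 decreased by unadjusted p without control replicate 1, and 501 and 724 without control replicate 2), and so 0 members, while by unadjusted p the member counts were again 3 and 1.

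**Figure D2:**
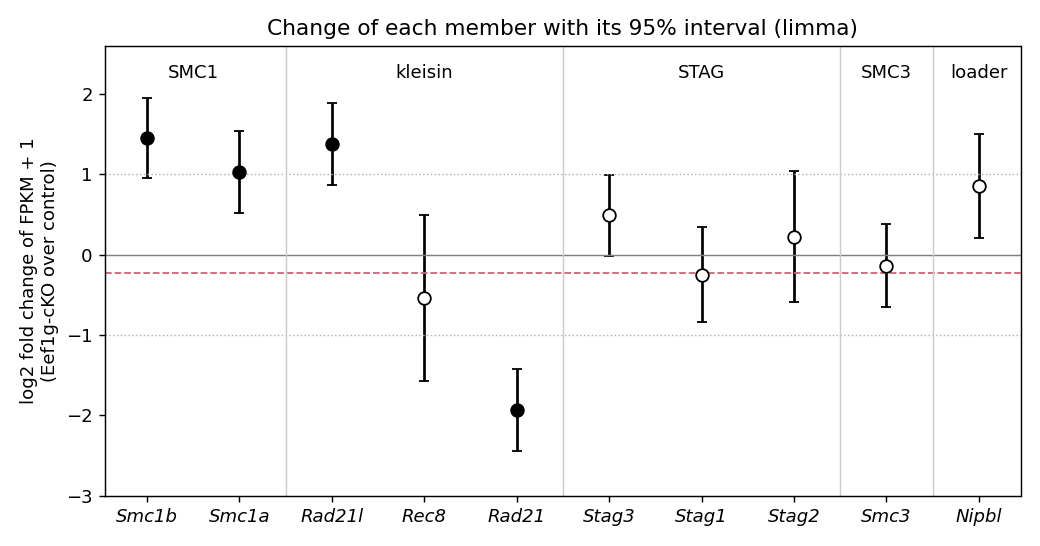
Log2 fold change of FPKM + 1 between *Eef1g*-cKO and control for each cohesin gene, with 95% intervals from limma. Filled points passed the adjusted p and fold thresholds (dotted lines at 1 and -1), open points did not, and the dashed red line is the median of all tested genes (-0.23); 3 genes are filled above the line and 1, *Rad21*, below it.

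SMC1 proteins pair with SMC3 to form the arms of the ring. *Smc1b*, the meiotic form (GRCm38 chr15:85064689-85131957), had 229 and 201 FPKM in the control libraries (2290 and 1125 reads) and 565 and 612 FPKM in the *Eef1g*-cKO libraries (511 and 1008 reads). Both *Eef1g*-cKO libraries were far above both control libraries, and the replicates of each genotype lay close together. Its mean level was 2.74 times that of control, a log2 fold change of FPKM + 1 of 1.45 (SE 0.20, 95% interval 0.95 to 1.95, limma adjusted p = 0.0296), which is 1.68 above the median of all genes. Its adjusted p ran from 5.75e-10 to 0.153 over 18 alternatives. Without control replicate 1 its log2 fold change was 1.54 and without control replicate 2 it was 1.36. The adjusted call of *Smc1b* was lost in both settings, as were all adjusted calls of the table, so this loss was not particular to *Smc1b*.

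*Smc1a*, the X-linked mitotic form (chrX:152016428-152061973), had 39.7 and 38.8 FPKM in control (391 and 213 reads) and 77.6 and 84.6 FPKM in *Eef1g*-cKO (69 and 137 reads). The genotypes did not overlap, and the level was 2.07 times that of control. The log2 fold change of 1.03 (SE 0.21, 95% interval 0.51 to 1.54, limma adjusted p = 0.0457) was close to both thresholds. It missed the adjusted p without control replicate 1 (0.206), without control replicate 2 (0.251), without replicate 1 of *Eef1g*-cKO (0.0631) and without replicate 2 of it (0.0791, log2 fold change 0.97), and its adjusted p ran from 0.00123 to 0.251 over 18 alternatives, of which 11 lost the call.

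The SMC1 genes thus both rose. *Smc1b* took 85.4% of the reads of the pair in control replicate 1 (exact Clopper-Pearson 95% interval 84.0 to 86.7%) and 84.1% in control replicate 2 (82.0 to 86.0%). In *Eef1g*-cKO it took 88.1% (85.2 to 90.6%) and 88.0% (86.0 to 89.9%). The *Eef1g*-cKO shares were above the control shares, but the counting interval of control replicate 1 overlapped those of both *Eef1g*-cKO libraries, and that of control replicate 2 overlapped that of *Eef1g*-cKO replicate 1. As a difference in log2(FPKM + 1) within a library, *Smc1b* exceeded *Smc1a* by 2.50 and 2.35 in control and by 2.85 and 2.84 in *Eef1g*-cKO, a change of 0.42. For this and the other 4 pairs the exact two-sided permutation test gave p = 0.333, the smallest that 2 libraries against 2 can give. Removing the trend with coding GC content (39.6% in *Smc1b*, 47.7% in *Smc1a*, median of all genes 53.1%) left a change of 0.08 between the paralogs and log2 fold changes of 1.08 for *Smc1b* and 1.00 for *Smc1a*, the latter under the fold threshold.

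Kleisins close the ring and are cut when cohesion is released. *Rad21*, the mitotic kleisin (chr15:51962604-51993538), had 123 and 131 FPKM in control (1102 and 655 reads) and 34.7 and 30.6 FPKM in *Eef1g*-cKO (28 and 45 reads). Both *Eef1g*-cKO libraries were far below both control libraries. The control level was 3.90 times the *Eef1g*-cKO level, a log2 fold change of -1.93 (SE 0.21, 95% interval -2.45 to -1.42, limma adjusted p = 0.0225), and *Rad21* was the only subunit called decreased. Its log2 fold change ran from -2.02 to -1.72 and its adjusted p from 1.23e-07 to 0.160 over 18 alternatives, and it missed the adjusted p without control replicate 1 (limma, 0.133) and without control replicate 2 (0.160). *Rad21* moved in the direction of the spermatogonial markers, of which limma called 7 of 12 decreased, beside 4.97% of all genes. Whether *Rad21* moved with them was not tested.

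*Rad21l*, a meiotic kleisin of early prophase (chr2:151644366-151670622), had 66.6 and 55.7 FPKM in control (274 and 128 reads) and 164 and 155 FPKM in *Eef1g*-cKO (61 and 105 reads). It showed the opposite pattern to *Rad21*, with no overlap between genotypes. The level was 2.61 times that of control, a log2 fold change of 1.37 (SE 0.21, 95% interval 0.87 to 1.88, limma adjusted p = 0.0307). Its adjusted p ran from 0.000144 to 0.166 over 18 alternatives and missed the threshold without control replicate 1 (limma, 0.124) and without control replicate 2 (0.166).

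*Rec8*, the meiotic kleisin that keeps sister chromatids joined until the second division (chr14:55618002-55625395), had 22.2 and 48.5 FPKM in control (113 and 138 reads) and 26.1 and 19.1 FPKM in *Eef1g*-cKO (12 and 16 reads). The control libraries differed from each other by more than the genotypes did, and the genotypes overlapped. The exact Poisson 95% interval was 13.5 to 45.6 FPKM in *Eef1g*-cKO replicate 1 and 10.9 to 31.0 in replicate 2, against 18.3 to 26.7 and 40.8 to 57.3 FPKM in the control libraries, and these intervals cover counting error only. The log2 fold change of -0.54 had a 95% interval of -1.57 to 0.50 (limma adjusted p = 0.419), which holds both a 2-fold decrease and no change. It was -1.09 without control replicate 1 and 0.01 without control replicate 2, which makes its sign depend on the control library used. With the GC trend removed it was -0.02, and its adjusted p ran from 0.281 to 0.991 over 18 alternatives.

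*Rad21* and *Rad21l* therefore changed places in the kleisin sum. *Rad21* made up 58.1% and 55.7% of the summed kleisin FPKM in control against 15.4% and 14.9% in *Eef1g*-cKO. *Rad21l* made up 31.4% and 23.7% in control against 73.0% and 75.7% in *Eef1g*-cKO, and *Rec8* 10.5% and 20.6% against 11.6% and 9.32%. The sum of the kleisins was 212 and 236 FPKM in control and 225 and 205 FPKM in *Eef1g*-cKO, so the genotypes overlapped in the sum while they did not in its largest parts. Per kilobase of coding sequence per 1000000 reads, the sum was 326 and 360 in control against 260 and 235 in *Eef1g*-cKO, lower in *Eef1g*-cKO, and *Rad21* made up 71.6% and 68.9% of it in control against 25.2% and 24.6% in *Eef1g*-cKO. Of the reads of *Rad21l* and *Rad21* together, *Rad21l* had 19.9% (17.8 to 22.1%) and 16.3% (13.8 to 19.1%) in control and 68.5% (57.8 to 78.0%) and 70.0% (62.0 to 77.2%) in *Eef1g*-cKO, with 89 and 150 reads behind the *Eef1g*-cKO shares. The intervals of the genotypes were far apart. The difference *Rad21l* minus *Rad21* in log2(FPKM + 1) was -0.88 and -1.22 in control against 2.21 and 2.31 in *Eef1g*-cKO, so the paralog with the higher FPKM was *Rad21* in both control libraries and *Rad21l* in both *Eef1g*-cKO libraries, and the change of 3.31 was the largest of the 5 pairs (exact permutation p = 0.333). For *Rec8* minus *Rad21* it was -2.42 and -1.42 in control against -0.40 and -0.65 in *Eef1g*-cKO, a change of 1.39 that rested on the fall of *Rad21*, and was 0.89 without control replicate 1.

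**Figure D3:**
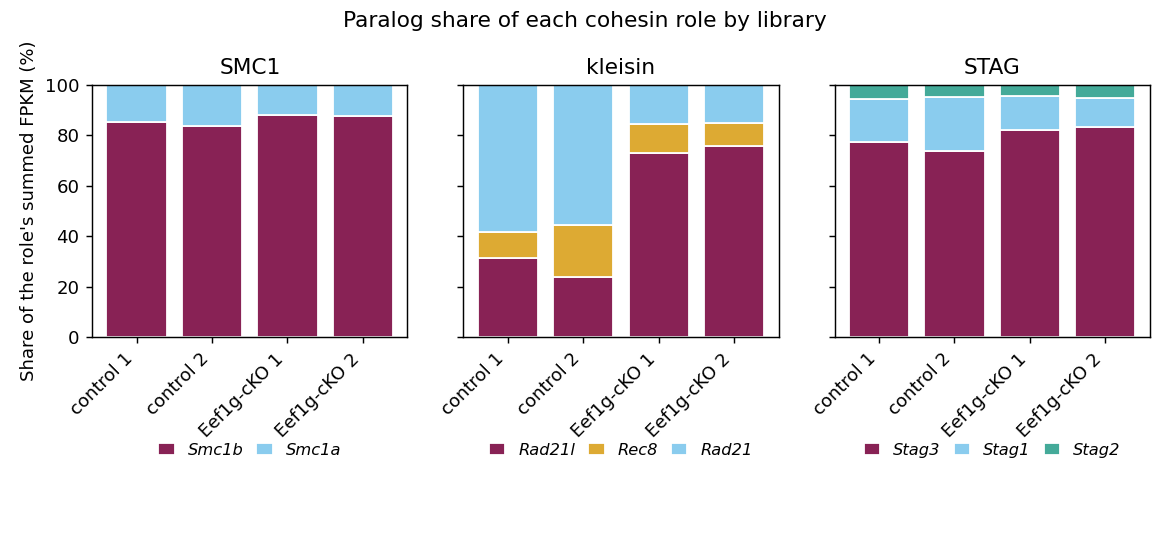
Share of each paralog in the summed FPKM of its role (SMC1, kleisin, STAG), in percent, for the 4 libraries, with bars adding up to 100%. *Rad21l* takes 31.4% and 23.7% of the kleisin sum in control against 73.0% and 75.7% in *Eef1g*-cKO, and the SMC1 and STAG shares differ less.

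STAG proteins bind the kleisin and take part in recruiting the ring to chromatin. *Stag3*, the meiotic form (chr5:138272514-138312397), had 182 and 174 FPKM in control (1905 and 1020 reads) and 227 and 276 FPKM in *Eef1g*-cKO (215 and 476 reads). The genotypes did not overlap, and the level was 1.41 times that of control. Its log2 fold change of 0.49 did not pass (SE 0.20, 95% interval -0.01 to 0.99, limma adjusted p = 0.173; 0.0524 to 0.546 over 18 alternatives). Its interval reached from no difference to nearly a doubling, and lay mostly above 0.

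*Stag1* (chr9:100597709-100958544) had 40.0 and 50.6 FPKM in control (596 and 421 reads) and 37.2 and 38.3 FPKM in *Eef1g*-cKO (50 and 94 reads). Its *Eef1g*-cKO values lay just below both control values, with a log2 fold change of -0.25 (95% interval -0.83 to 0.34, limma adjusted p = 0.511), which lay -0.01 from the median of all genes. It was -0.52 with the GC trend removed, -0.41 without control replicate 1 and -0.08 without control replicate 2. *Stag2* (chrX:42149297-42277186) had 12.9 and 11.7 FPKM in control (199 and 101 reads) and 12.2 and 17.4 FPKM in *Eef1g*-cKO (17 and 44 reads). Its genotypes overlapped, and its log2 fold change of 0.23 (95% interval -0.59 to 1.04, limma adjusted p = 0.672) became -0.09 with the GC trend removed and -0.01 without *Eef1g*-cKO replicate 2.

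*Stag3* took most of the STAG level in all 4 libraries, 77.4% and 73.7% of the summed FPKM in control against 82.1% and 83.2% in *Eef1g*-cKO. Of the reads of *Stag3* and *Stag1* together, *Stag3* had 76.2% (74.4 to 77.8%) and 70.8% (68.4 to 73.1%) in control and 81.1% (75.9 to 85.7%) and 83.5% (80.2 to 86.5%) in *Eef1g*-cKO. The *Eef1g*-cKO shares were higher in both libraries, and the interval of *Eef1g*-cKO replicate 1 overlapped that of control replicate 1. Against *Stag2*, *Stag3* had 90.5% (89.2 to 91.8%) and 91.0% (89.2 to 92.6%) of their joint reads in control. In *Eef1g*-cKO it had 92.7% (88.5 to 95.7%) and 91.5% (88.8 to 93.8%), and the intervals of all 4 libraries overlapped. The difference *Stag3* minus *Stag1* in log2(FPKM + 1) changed by 0.74 (exact permutation p = 0.333) and *Stag3* minus *Stag2* by 0.26 (p = 0.333 in the same permutation test), both upward in *Eef1g*-cKO. With the GC trend removed these changes were 1.15 and 0.72, larger, in contrast to the SMC1 pair. *Stag3* has a coding GC content of 50.1%, *Stag1* of 42.2% and *Stag2* of 41.0%.

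*Smc3*, the partner of both SMC1 forms (chr19:53600396-53645831), had 121 and 98.7 FPKM in control (1455 and 663 reads) and 98.5 and 100 FPKM in *Eef1g*-cKO (107 and 198 reads). The genotypes overlapped. The log2 fold change of -0.14 had a 95% interval of -0.65 to 0.38 (limma adjusted p = 0.683), and was 0.08 with the libraries centred on their medians and -0.39 with the GC trend removed, the ends of its range over 18 alternatives. It was 0.01 without control replicate 1 and -0.28 without control replicate 2. The summed SMC1 level, 268 and 240 FPKM in control and 643 and 696 FPKM in *Eef1g*-cKO, was thus higher in *Eef1g*-cKO beside a *Smc3* level that did not pass the test.

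*Nipbl*, which encodes the cohesin loader (chr15:8289824-8465315), had 17.7 and 15.0 FPKM in control (471 and 224 reads) and 29.0 and 31.7 FPKM in *Eef1g*-cKO (70 and 139 reads). Both *Eef1g*-cKO libraries were above both control libraries, and the level was 1.86 times that of control. The log2 fold change of 0.86 (SE 0.26, 95% interval 0.21 to 1.51) did not pass in limma (adjusted p = 0.0954). In edgeR's quasi-likelihood test its adjusted p was 0.00436 with a log2 fold change of 0.97, just under the fold threshold, and over 18 alternatives the adjusted p ran from 0.00436 to 0.330.

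The meiotic and mitotic classes were also compared by a score, the mean log2(FPKM + 1) of the 4 meiotic subunits minus that of the 4 mitotic paralogs. It was 1.13 and 1.21 in control against 2.17 and 2.02 in *Eef1g*-cKO, a change of 0.93, given as a description. By limma's adjusted p, 2 of the meiotic subunits were called increased and 2 did not pass. Of the mitotic paralogs 1 was called increased, 1 decreased and 2 did not pass. Of all genes, 2.87% were called increased and 4.97% decreased. The called mitotic paralogs thus moved in opposite directions, while *Stag3*, not called, was above control in both *Eef1g*-cKO libraries. The reads of the meiotic subunits were 1848 and 1742 per 1000000 in control against 3568 and 3934 in *Eef1g*-cKO, and those of the mitotic paralogs 923 and 1004 in control against 732 and 784 in *Eef1g*-cKO. The genotypes did not overlap in either sum. *Rad21* had 1102 and 655 of the 2288 and 1390 mitotic reads in control, against 28 and 45 of 164 and 320 in *Eef1g*-cKO. The lower mitotic sum was not shared by all 4 paralogs, as *Smc1a* rose and *Stag2* overlapped between the genotypes.

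Profiles like that of *Smc1b* were sought among the 2067 genes whose mean reached 20 FPKM and whose reads reached 20 in each library, by the Euclidean distance of log2(FPKM + 1) values centred on each gene's mean over the 4 libraries. The 5 nearest were *Atpaf2* (distance 0.052), *Zfp367* (0.083), *Iqcb1* (0.12), *Dync1i2* (0.13) and *Tktl1* (0.13). *Zfp367* had 10.7 and 10.1 FPKM in control and 29.4 and 30.9 FPKM in *Eef1g*-cKO. Its mean thus reached 20 FPKM only through the *Eef1g*-cKO libraries. *Rad21l* was at place 8 (0.17), *Smc1a* at place 144 (0.44) and *Rad21* at place 2057 (3.39). With 4 libraries in 2 groups, this distance reflects mostly the size of the genotype difference.

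Further genes act with cohesin in its loading, release, acetylation, protection and cleavage, or, as CTCF does, at the DNA sites where it stops. The 14 such genes, called regulators here, were all in the table and tested by limma. It called 0 increased and 1 decreased by adjusted p, and 2 increased and 1 decreased by unadjusted p. edgeR called 1 and 1 and DESeq2 0 and 1, both without an adjusted p for *Hdac8*. Over all genes the shares were 2.87% and 4.97% by adjusted p, 7.32% and 16.3% by unadjusted p, 8.75% and 11.2% in edgeR and 5.94% and 5.34% in DESeq2, and 1 of 14 genes is near these shares. Their median log2 fold change was -0.18, beside -0.23 over all genes, and they ranged from -1.70 to 1.48. *Cdca5*, which encodes sororin, the antagonist of the release factor WAPL, had 41.7 and 42.8 FPKM in control and 11.7 and 12.9 FPKM in *Eef1g*-cKO. It fell by 1.70 on the log2 scale (SE 0.25, limma adjusted p = 0.0307), with an adjusted p of 0.206 without control replicate 1, 0.251 without control replicate 2 and 0.00566 to 0.251 over 18 alternatives. *Pds5a*, which encodes a regulatory subunit bound to the kleisin, had 19.3 and 12.5 FPKM in control and 35.5 and 31.3 FPKM in *Eef1g*-cKO, a log2 fold change of 1.05 that passed limma's unadjusted threshold and missed the adjusted one (adjusted p = 0.0857; 0.0108 to 0.331 over 18 alternatives). Its log2 fold change was under the fold threshold without control replicate 2 (0.76), without *Eef1g*-cKO replicate 1 (0.96), with the GC trend removed (0.82, with or without the replicate block), with a pseudocount of 5 (0.90) and with thinned libraries (0.98). *Hdac8*, the SMC3 deacetylase, named after its values were seen, was the other gene past the unadjusted threshold, at levels of 0.419 to 5.69 FPKM. Its control mean of 0.794 FPKM was under the filter of 1 FPKM, which it cleared through the *Eef1g*-cKO mean of 4.14 FPKM. Few reads lay behind these levels: 5 and 1 for the control replicates, 1 and 4 for the *Eef1g*-cKO replicates. Counts this small cannot decide whether *Hdac8* differed.

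Condensin and the SMC5/6 complex are built on the same SMC plan. Of 14 genes of these complexes, all tested, limma called 2 increased and 0 decreased, by adjusted and by unadjusted p, as did edgeR and DESeq2, beside the shares of all genes given for the regulators. Their median log2 fold change was 0.27, beside -0.23 over all genes. *Ncapg*, a condensin I subunit, had 50.1 and 51.8 FPKM in control and 178 and 164 FPKM in *Eef1g*-cKO, a log2 fold change of 1.73 (SE 0.20, limma adjusted p = 0.0225; 3.06e-10 to 0.136 over 18 alternatives). *Smc4*, an SMC subunit of both condensins, had 135 and 117 FPKM in control and 334 and 316 FPKM in *Eef1g*-cKO, a log2 fold change of 1.36 (SE 0.20, limma adjusted p = 0.0307; 4.66e-08 to 0.149 over 18 alternatives). Both missed the adjusted p without control replicate 1 (limma, 0.124 for each) and without control replicate 2 (0.136 for *Ncapg* and 0.149 for *Smc4*). With the GC trend removed *Smc4* was under the fold threshold (log2 fold change 0.95), and of 18 alternatives 7 lost its call, against 4 for *Ncapg*. *Smc2*, the partner of *Smc4*, had 39.2 and 40.1 FPKM in control and 34.7 and 28.4 FPKM in *Eef1g*-cKO and did not pass (log2 fold change -0.33, limma adjusted p = 0.389); it is named as the partner, after its values were seen.

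**Figure D4:**
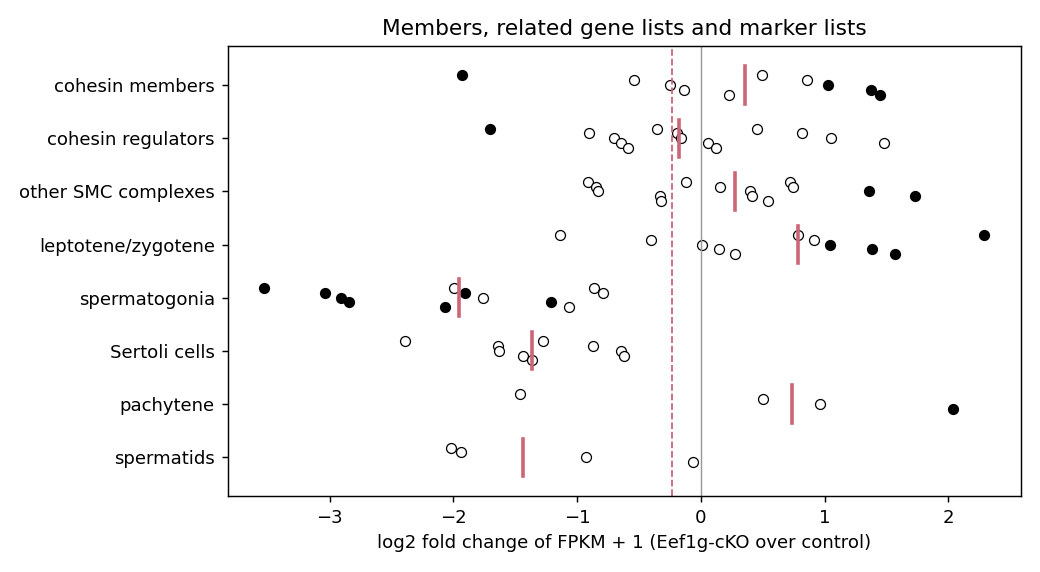
Log2 fold changes of FPKM + 1 (*Eef1g*-cKO over control) of the cohesin genes, the related lists and the marker lists, 1 point per tested gene. Filled points passed the adjusted p and fold thresholds, red bars are list medians and the dashed line is the median of all genes (-0.23); the spermatogonial markers lie below 0 (median -1.95) and the cohesin genes on both sides of it.

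Beside the shares of all genes (2.87% increased and 4.97% decreased by limma's adjusted p, 7.32% and 16.3% by unadjusted p, 8.75% and 11.2% in edgeR, 5.94% and 5.34% in DESeq2), limma called 4 of 11 leptotene/zygotene genes increased and 0 decreased by adjusted p (4 and 1 by unadjusted p and by edgeR, 4 and 0 by DESeq2), with a median log2 fold change of 0.79. It called 0 of 12 spermatogonial genes increased and 7 decreased (0 and 9 by unadjusted p, 0 and 8 by edgeR and by DESeq2), with a median of -1.95. edgeR and DESeq2 gave no adjusted p for *Gfra1*, *Etv5*, *Id4* and *Nanos3*, so their spermatogonial counts are over fewer than 12 genes. *Mei4* was not tested by edgeR, so its leptotene/zygotene count is over fewer than 11 genes. *Smc1b* and *Rad21l* moved in the direction of most leptotene/zygotene genes and *Rad21* in that of the spermatogonial genes. The mitotic paralog *Smc1a* also moved in the direction of most leptotene/zygotene genes, and the meiotic *Rec8* overlapped between the genotypes. Of 8 pachytene markers 4 were in the table, with summed levels of 426 and 317 FPKM in control and 1496 and 1392 FPKM in *Eef1g*-cKO. Nearly all of this came from *Hist1h1t* (388 and 301 against 1458 and 1354 FPKM), the only pachytene marker called increased by limma, with 0 decreased (1 by unadjusted p, 0 by edgeR and by DESeq2). Without control replicate 1 or without control replicate 2, limma called 0 genes of the whole table by adjusted p, and the adjusted p of *Hist1h1t* was 0.124 and 0.136.

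Markers of other cells were low or were higher in control, and none was called by limma's adjusted p. Of 10 Sertoli cell markers 9 were in the table, with summed levels of 673 and 163 FPKM in control and 151 and 109 FPKM in *Eef1g*-cKO (most abundant *Clu*), and 0 were called increased or decreased by adjusted p (0 and 2 by unadjusted p, 0 and 3 by edgeR, 0 and 0 by DESeq2), to be read beside the same shares of all genes. Control replicate 1 stood above the other 3 libraries in this sum. edgeR and DESeq2 gave no adjusted p for *Wt1*, *Inhbb* and *Gata4*, so their Sertoli counts are over fewer than 9 genes. Of 7 spermatid markers 4 were in the table (most abundant *Tnp1*), with sums of 10.1 and 57.3 FPKM in control and 8.97 and 15.1 FPKM in *Eef1g*-cKO. Of 6 Leydig cell markers 3 were in the table (*Cyp11a1*), with sums of 3.10 and 5.82 FPKM in control and 2.23 and 1.22 FPKM in *Eef1g*-cKO. Of 5 peritubular markers 3 were in the table (*Acta2*), with sums of 43.8 and 39.4 FPKM in control and 27.7 and 20.8 FPKM in *Eef1g*-cKO. For these last lists limma called 0 by adjusted and by unadjusted p, with *Hsd3b1* of the Leydig list not tested. edgeR and DESeq2 called 0 of the peritubular genes. They gave no adjusted p for any spermatid or Leydig gene in the table, so they say nothing on those lists. None of the 6 macrophage or 5 blood markers was in the table. The part of these cells in the cohesin results was not tested.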

How the data were processed

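Ribo-seq libraries of leptotene/zygotene spermatocytes from 12 dpp testes were compared, 2 from control and 2 from *Eef1g*-cKO mice, grouped by the sample labels. The deposited FPKM are the authors' reads per 1000 bases of gene length and per 1000000 counted reads. The deposited signal holds the authors' normalized counts, read counts over 1 size factor for each library, which gave whole reads for 100% of values in each library within a tolerance of 0.001 reads. The authors' own comparison columns (mean normalized count, fold change, its error, test score, p-value and adjusted p-value) were not used. The submitters' processing notes name cutadapt, Bowtie and STAR and the builds mm10 and hg38; the counter and annotation are not given in the sources used here. RPFs of 26 to 34 nt were selected on a gel, and replicates are described as independent biological replicates.

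Log2(FPKM + 1) values of the 10475 genes whose mean reached 1 FPKM were fitted with limma 3.58.1 (R 4.3.3; trended prior variance), with Benjamini-Hochberg adjustment over all of them, and calls needed an adjusted p below 0.05 and more than 1 for the size of the log2 fold change. Fold changes on this scale understate the change of low genes. On the whole reads, edgeR 4.0.16 (filterByExpr, TMM, quasi-likelihood test) called 705 genes increased and 904 decreased, and DESeq2 1.42.0 called 502 and 451. Exact permutation tests, Clopper-Pearson and Poisson intervals used Python 3.11.15 with numpy 2.4.6, scipy 1.17.1 and pandas 2.3.3; intervals and the floor of 3 reads cover counting error only. Coding sequences are the longest per gene in GENCODE M21 (GRCm38), found for 11216 of 11598 genes. The limma fit was tested on simulated data. Alternatives were other pseudocounts, filters, scalings, variance priors and count models, thinned libraries, a GC trend removed, a replicate block and each library left out.

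The genes named are the 10 members, *Eef1g*, each regulator or other SMC gene called by adjusted p, the 3 largest changes per direction among those called by unadjusted p with a mean of at least 5 FPKM, the 5 genes nearest to *Smc1b*, and marker genes. Members and lists were chosen with earlier results of these data known.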

Additional observations from a re-analysis of the deposited data

How the results depend on the processing

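Depth limited the precision of single genes: the median gene had 5 and 8 reads in *Eef1g*-cKO against 60 and 34 in control, and *Rec8* had 12 and 16 reads there. Over 18 alternatives, *Smc1b* kept its direction in all and its call in 13, *Rad21l* in 13, *Rad21* in 14 and *Smc1a* in 7. Where a call was lost, the cause was not tested.

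Members increased by adjusted p numbered 0 with a pseudocount of 0.1, with an untrended prior variance and with thinned libraries, and 0 to 2 with each library left out, against 3 by unadjusted p in each of the first 3. Members decreased numbered 0 with an untrended prior variance and with thinned libraries (1 by unadjusted p in each), and 0 to 1 with each library left out. DESeq2 and edgeR called 3 increased and 1 decreased. In the thinned libraries the log2 fold changes themselves were 1.44 for *Smc1b*, 1.61 for *Rad21l*, 1.10 for *Smc1a* and -1.96 for *Rad21*, against 1.45, 1.37, 1.03 and -1.93 in the full libraries.

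Of all genes, limma called 29 increased and 47 decreased with a pseudocount of 0.1, 521 and 383 with centred libraries, 588 and 368 with the GC trend removed, and 0 in either direction with an untrended prior (793 and 1811 by unadjusted p) or thinned libraries (709 and 1243). edgeR called 705 and 904, with DESeq2 size factors 682 and 890, and without a filter 689 and 876, and DESeq2 called 502 and 451. Against 301 and 521 in the full comparison, increases thus outnumbered decreases with centring, with the GC trend removed and in DESeq2. With each library left out the counts ran from 0 to 566 increased and from 0 to 1471 decreased; the lone library of a genotype was then assumed to vary like the others.

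With a replicate block, limma called 424 genes increased and 822 decreased, and 637 and 421 with the block and the GC trend removed. Deviations of same-numbered libraries from their genotype means had a correlation of -0.00804 over 10475 genes, so the numbers were not taken to pair the samples. With 2 libraries per genotype this value is the same for either replicate number by construction. Member counts with the replicate block were 3 and 1.

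The class score changed by 1.06 with the GC trend removed and by 0.85 to 1.00 with each library left out. The change in *Smc1b* minus *Smc1a* was 0.34 with thinned libraries and 0.0832 with the GC trend removed; in *Rad21l* minus *Rad21*, 3.57 and 2.93. With the GC trend removed it was 1.15 for *Stag3* minus *Stag1* and 0.72 for *Stag3* minus *Stag2*. With each library left out, the 5 pairs ran from 0.35 to 0.50, 3.14 to 3.48, 0.89 to 1.90, 0.54 to 0.93 and 0.17 to 0.36, in the order *Smc1b*/*Smc1a*, *Rad21l*/*Rad21*, *Rec8*/*Rad21*, *Stag3*/*Stag1*, *Stag3*/*Stag2*.

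Signs turned for 3 members, none of them called: *Rec8*, from -1.09 to 0.0089 with each library left out; *Stag2*, -0.0881 with the GC trend removed, with or without the block, and -0.0106 to 0.46 with each library left out; and *Smc3*, 0.0764 with centred libraries and -0.28 to 0.0078 with each library left out.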
